A study of Homo sapiens with 24 samples.

Results

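The collagen genes were taken as every gene whose symbol consists of COL, a number, A and a number, and 44 of the 57820 genes counted met this rule. The data were 24 RNA-seq libraries of the human osteosarcoma line U2OS, made of 8 groups with 3 biological replicates each. AID-DIvA U2OS cells carry the restriction enzyme AsiSI in an inducible form, and their groups were WT untreated, WT treated with mocetinostat and recovered, ID3-KO untreated, and ID3-KO treated and recovered. U2OS cells gave the matching groups WT untreated, WT treated, ID3-KO untreated and ID3-KO treated. Mocetinostat, an inhibitor of class I histone deacetylases, was given for 24 h, and recovery lasted a further 24 h in medium without the drug. The AID-DIvA groups are called "after recovery" below and the U2OS groups "before recovery", the latter name being inferred from the description of the design and the methods. Since each stage was measured in only 1 of the cell line labels, stage and line cannot be told apart. Titles and the treatment label of AID-DIvA samples went against each other, and groups here follow the titles. How ID3 was disrupted, and whether the KO cells were 1 clone, is not given in the sources used here.

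Collagens are secreted or membrane-bound proteins built from 3 chains wound into a triple helix, and each gene encodes 1 chain. Fibrillar collagens form the fibres of bone, skin and tendon, with type I as the main protein of bone matrix. Network collagens such as type IV build basement membranes, fibril-associated collagens decorate the fibres, type VI makes beaded filaments around cells, and transmembrane collagens anchor cells. Chains are modified and folded in the endoplasmic reticulum, trimmed outside the cell and crosslinked by lysyl oxidases. ID3 lacks a DNA-binding domain and pairs with basic helix-loop-helix factors, which bind the E-box CANNTG, so that they cannot bind DNA.

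The AID-DIvA libraries held 37878751 to 76906266 counts and the U2OS libraries 46285533 to 70692114, of which collagen genes took 0.328 to 0.634%. In these bulk samples a lower level can come from fewer expressing cells or from less RNA per cell, which cannot be told apart. Of the osteoblast markers RUNX2 (11.8 to 47.5 CPM) and SPP1 (14.9 to 61.2 CPM) were expressed in every library. ALPL lay at 0.616 to 7.01 CPM and BGLAP at 0.227 to 0.684 CPM, whereas SP7 and IBSP did not exceed 0.114 and 0.403 CPM. The summed level of the 4 immune markers stayed at or below 0.924 CPM, and the endothelial gene VWF rose no higher than 9.99 CPM. The epithelial keratin gene KRT8 reached 132 to 306 CPM, whereas EPCAM lay at 4.5 to 10.4 CPM and CDH1 at 0.165 to 1.98 CPM. Sums of these 3 epithelial markers given below are therefore mostly KRT8. Likewise the osteoblast sums are mostly RUNX2 and SPP1, and the endothelial sums mostly VWF, as CDH5 did not exceed 0.912 CPM. Replicate 1 of the untreated WT U2OS cells stood apart: the chi-square per gene that set its counts against replicate 2 was 103 and against replicate 3 was 91.1, while it was 4.32 for the latter pair and did not exceed 27.3 for any pair in another group. Collagen calls that change without it are named with each comparison. ID3 itself was counted in every library, at 48.7, 51.8 and 52.3 CPM in untreated WT and 33.2, 32.6 and 38.8 CPM in untreated KO AID-DIvA cells, and at 79.7, 53.9 and 51.6 against 32.1, 29.9 and 29.1 CPM in U2OS cells. It was lower in KO cells by edgeR's quasi-likelihood test, with a log2 difference of -0.56 (SE 0.07, adjusted p = 8.4e-06) and -1.03 (SE 0.17, adjusted p = 0.0065).

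The collagen repertoire of these cells was led by COL1A1, the alpha 1 chain of type I collagen. Levels are given as CPM, counts scaled to the TMM-adjusted library total over the 24 libraries, and are compared between genes only per kilobase of exon, as FPKM. The group mean of COL1A1 lay between 109 and 239 FPKM, which was 21.9 to 33.2% of the summed FPKM of all collagen genes. Next in order came COL6A2 with a mean over groups of 89.3 FPKM, COL4A2 with 77.1 FPKM, COL6A1 with 47.3 FPKM, COL12A1 with 34.5 FPKM and COL4A1 with 31.8 FPKM. COL3A1 followed with 24.4 FPKM, but its group means ran from 1.91 to 79.2 FPKM. Of the 44 genes, 27 reached a group mean of 1 CPM in every group, 34 did so in at least 1 group, and 10 stayed below 1 CPM throughout.

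**Figure D1:**
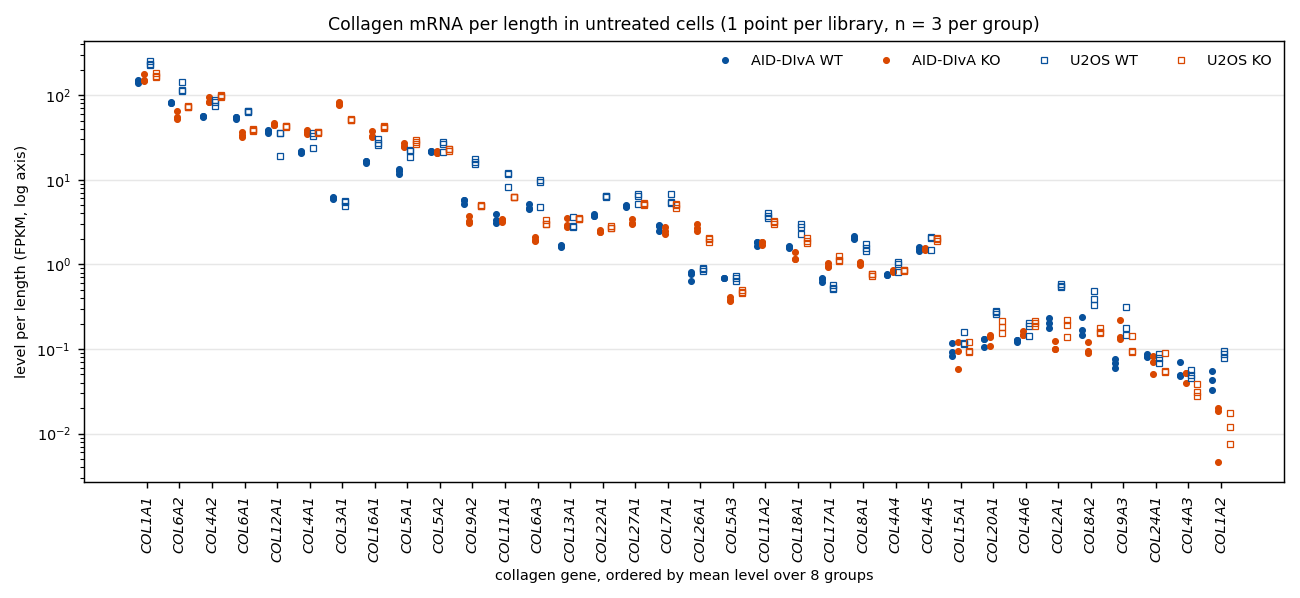
Level per length of the 34 collagen genes that reached 1 CPM in at least 1 group, in the 12 untreated libraries (FPKM, log axis, 1 point per library, circles AID-DIvA, squares U2OS, blue WT, orange KO). COL1A1 leads in all 4 groups, COL1A2 is the lowest of them in all but WT U2OS cells, and COL3A1 shows the widest gap between WT and KO.

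The partner chain of type I collagen was nearly absent. COL1A2 encodes the alpha 2 chain, which joins 2 alpha 1 chains in ordinary type I collagen. Its level did not exceed 1.37 CPM in any library, and the group mean of the ratio of COL1A1 to COL1A2 per length ran from 1410 in treated WT U2OS to 16400 in untreated KO AID-DIvA cells. The ratio varied widely where COL1A2 rested on few counts, with an SD of 14100 in the latter group. The chains of basement membrane type IV kept a much narrower ratio: COL4A1 to COL4A2, which start 1337 bp apart on opposite strands of chromosome 13, stood at group means of 0.372 to 0.467. In type VI collagen the alpha 2 chain exceeded the alpha 1 chain, with COL6A2 to COL6A1 at 1.51 to 2.53, while COL6A3 to COL6A1 lay between 0.0576 and 0.196. In type V collagen the ratio of COL5A3 to COL5A2 was 0.0184 to 0.0317 in the 4 untreated groups and 0.656 and 0.672 in the treated U2OS groups.

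Before recovery more collagen genes were called higher than lower with mocetinostat, but the share of all counts taken by collagen genes fell. Its mean went from 0.608% (SD 0.026) in untreated to 0.532% (SD 0.019) in treated WT cells. In KO cells it went from 0.552% (SD 0.020) to 0.419% (SD 0.018). In WT U2OS cells 38 of the 44 were tested, of which 16 rose and 7 fell at an adjusted p below 0.05, and in KO cells 22 rose and 12 fell of 38 tested. Over all genes tested, 26% rose and 22.9% fell in WT, and 35.8% rose and 34% fell in KO cells. A log2 change beyond 1 was reached by 16 collagen genes in WT, 13 of them higher, and by 17 in KO cells, 14 of them higher, where 18.6% and 20.3% of all genes did so. The higher ones include COL21A1 and COL28A1 in both genotypes, and COL6A6 and COL1A2 in KO cells. On the untreated libraries alone these would not have met the count filter. For 2 of the 13 and 4 of the 14 a difference was thus built into their being tested. The median log2 change over the tested collagen genes was 0.11 in WT and 0.46 in KO cells, and over all genes it was 0.01 and 0.00. Without replicate 1 of untreated WT U2OS, 20 rose and 17 fell in WT cells, where 33.9% and 32.5% of all genes did. The calls gained were COL6A2, COL6A5, COL9A3 and COL19A1 as higher, and COL4A1, COL4A2, COL4A5, COL5A1, COL6A1, COL7A1, COL11A1, COL11A2, COL12A1 and COL27A1 as lower, the latter with log2 changes from -0.09 to -0.39. Of these, COL6A5 and COL19A1 were too low to be tested with all libraries in the fit. COL6A5 had 0, 1 and 0 counts in untreated and 13, 12 and 10 in treated WT U2OS libraries, and COL19A1 3, 3 and 2 against 24, 9 and 8. A difference was thus built into their being tested. The transmembrane collagens COL13A1 and COL17A1 and both multiplexins, COL15A1 and COL18A1, rose in both genotypes, although the call of COL18A1 in WT cells (log2 0.34) was lost without any 1 treated library and without untreated replicate 2 or 3, with edgeR adjusted p-values up to 0.098. Fibrillar genes were divided, with 2 higher and 4 lower of 11 in WT and 4 higher and 6 lower in KO cells.

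After recovery the counts were even. In WT AID-DIvA cells 12 of 37 tested collagen genes were higher and 10 lower than in untreated cells, and in KO cells 12 were higher and 10 lower of 36. The share of all genes was 23.9% higher and 23% lower in WT, and 20.2% higher and 19.9% lower in KO cells. With a log2 change beyond 1 there were 9 collagen genes in each genotype, 6 higher and 3 lower, beside 7.38% of all genes in WT and 7.46% in KO cells. The called genes include COL19A1 and COL14A1 in both genotypes and COL4A3 in KO cells. These would not have met the count filter on the libraries of their lower group alone, so that a difference was built into their being tested. The median over tested collagen genes was 0.05 in WT and 0.00 in KO cells. Of the 22 called in each genotype, 9 were higher in both, 8 were lower in both and none went opposite ways, where 16.3% of all genes tested in both were higher in both, 16% lower in both and 0.106% opposite.

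**Figure D2:**
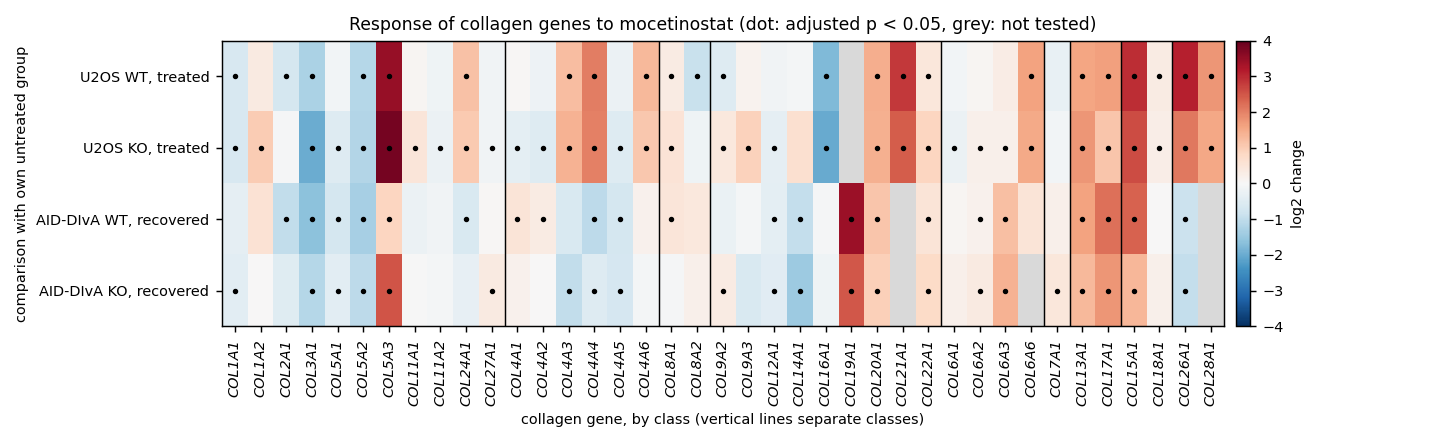
Log2 change of collagen genes in the 4 comparisons of mocetinostat-treated with untreated cells, for the 39 genes tested in at least 1 of them (columns, grouped by class, colour scale in log2 units, dots mark an adjusted p below 0.05, grey was not tested). COL5A3 is dark red before recovery, COL26A1 and COL4A4 turn from red to blue after it, and COL3A1 and COL5A2 are blue in all 4 rows.

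A group of 6 genes was higher in all 4 comparisons: COL5A3, COL13A1, COL15A1, COL17A1, COL20A1 and COL22A1. COL5A3 encodes a minor chain of type V collagen, which helps to start fibrils, and lies on chromosome 19 from 10070237 to 10121147 (hg19, minus strand). It read 4.91, 4.27 and 4.6 CPM in untreated WT U2OS cells and 50.8, 49.7 and 53.2 CPM in treated ones, and 3.11, 3.16 and 3.39 against 49.8, 41.5 and 45 CPM in KO cells. These groups lie far apart, with log2 changes of 3.48 (SE 0.09, adjusted p = 4.2e-07) and 3.82 (SE 0.08, adjusted p = 1.1e-20) by edgeR. After recovery it stood at 7.33, 8.66 and 9.18 CPM in WT against 4.62, 4.65 and 4.69 CPM untreated, and at 17.6, 13.2 and 14.2 CPM in KO against 2.53, 2.78 and 2.51 CPM untreated. The groups did not overlap, and the log2 change was 0.87 (SE 0.10, adjusted p = 7.2e-06) in WT and 2.51 (SE 0.11, adjusted p = 4.1e-07) in KO cells.

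COL15A1, a basement membrane collagen of the multiplexin class, read 0.78, 1.04 and 0.77 CPM in untreated and 6.63, 6.44 and 7.04 CPM in treated WT U2OS cells. In KO U2OS cells it read 0.618, 0.636 and 0.798 against 4.32, 4.2 and 4.01 CPM. After recovery it was 3.54, 3.26 and 2.99 CPM in WT and 1.62, 1.44 and 1.49 CPM in KO cells, against 0.554 to 0.779 and 0.389 to 0.81 CPM untreated. Treated and untreated groups did not overlap in any of the 4 pairs, and edgeR gave log2 changes of 2.94 (SE 0.15), 2.61 (SE 0.14), 2.35 (SE 0.15) and 1.34 (SE 0.23), with adjusted p-values of at most 0.0014. COL17A1, a hemidesmosome component of epithelial cells, was the only 1 of the 6 whose change after recovery exceeded that before it in both genotypes by the test of the difference (0.55, SE 0.12, and 0.67, SE 0.13). It read 3.4, 3.68 and 3.27 CPM untreated and 10.4, 10.5 and 11.5 CPM treated in WT U2OS cells, and 4.44, 3.95 and 4.27 against 18.9, 19.6 and 18.8 CPM after recovery in WT AID-DIvA cells. The log2 changes were 1.64 (SE 0.10) and 1.11 (SE 0.07) before recovery in WT and KO cells, and 2.20 (SE 0.07) and 1.78 (SE 0.10) after it. COL13A1, found at cell adhesions and the neuromuscular junction, rose by a log2 change of 1.59 and 1.76 before recovery and 1.61 and 1.29 after it. COL22A1, a fibril-associated collagen of tissue junctions, rose less, with log2 changes of 0.45 and 0.85 before and 0.51 and 0.77 after recovery. COL20A1 rose by 1.47 and 1.42 before and 1.11 and 0.96 after recovery on the log2 scale, but 60.2% of its strand-assigned counts lay on the opposite strand. Counted on its own strand alone it was also called higher in all 4 comparisons.

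The promoters of the 4 genes with the largest changes among these 6 that the reference table holds are shown, because ID3 acts on factors that bind the E-box and because these genes rose together. Each line runs from 250 bases before to 50 after the RefSeq gene start (GRCh38.p14), 5′ to 3′ on the strand of the gene, with every match to CANNTG on either strand in capitals. COL5A3 lies at chr19:10010455-10010754 (minus strand), COL15A1 at chr9:98943657-98943956 (plus), COL17A1 at chr10:104085831-104086130 (minus) and COL13A1 at chr10:69801656-69801955 (plus).
COL5A3: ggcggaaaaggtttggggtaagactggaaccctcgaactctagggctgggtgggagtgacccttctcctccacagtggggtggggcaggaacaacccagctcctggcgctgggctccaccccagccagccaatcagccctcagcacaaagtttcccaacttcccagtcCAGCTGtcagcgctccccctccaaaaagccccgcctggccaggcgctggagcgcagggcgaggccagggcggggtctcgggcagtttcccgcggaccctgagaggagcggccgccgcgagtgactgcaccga
COL15A1: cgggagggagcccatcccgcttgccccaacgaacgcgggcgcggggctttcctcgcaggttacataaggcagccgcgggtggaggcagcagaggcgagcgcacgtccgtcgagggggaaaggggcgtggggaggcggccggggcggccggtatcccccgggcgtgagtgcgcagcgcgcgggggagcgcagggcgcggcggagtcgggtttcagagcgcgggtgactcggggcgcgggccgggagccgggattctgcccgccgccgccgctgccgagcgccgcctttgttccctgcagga
COL17A1: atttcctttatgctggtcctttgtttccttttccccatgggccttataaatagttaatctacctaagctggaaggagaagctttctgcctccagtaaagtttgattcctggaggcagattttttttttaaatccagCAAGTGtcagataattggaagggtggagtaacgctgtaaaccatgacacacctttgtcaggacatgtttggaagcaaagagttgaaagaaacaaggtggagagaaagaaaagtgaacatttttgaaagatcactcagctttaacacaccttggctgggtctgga
COL13A1: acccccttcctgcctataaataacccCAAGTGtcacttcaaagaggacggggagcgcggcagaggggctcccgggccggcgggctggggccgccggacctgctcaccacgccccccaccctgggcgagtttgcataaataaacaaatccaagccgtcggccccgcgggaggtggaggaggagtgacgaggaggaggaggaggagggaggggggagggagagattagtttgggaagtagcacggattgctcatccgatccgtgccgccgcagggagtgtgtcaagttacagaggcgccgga
COL5A3, COL17A1 and COL13A1 held 1 CANNTG each, at 82, 114 and 224 bases before the start, and no such letters were in the COL15A1 window. Of the 44 collagen genes 32 matched a promoter in the table, and CANNTG occurred in 56.2% of them, against 68.9% of all 27305 promoters. TATAAA occurred in 15.6% against 12%, GGGCGG in 56.2% against 44.6%, and CCAAT in 31.2% against 35.7%, each searched on both strands. The median GC content was 66.3% in collagen promoters and 58.3% in all. A match says only that the letters are present.

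COL3A1 and COL5A2 were lower in all 4 comparisons. They are fibrillar genes on opposite strands of chromosome 2 (189839046 to 189877472 and 189896622 to 190044605, hg19), with starts 205559 bp apart. COL3A1, the chain of type III collagen of distensible tissue, read 33.4, 38 and 37.4 CPM in untreated and 15.3, 14.8 and 15 CPM in treated WT U2OS cells. In KO U2OS cells it read 359, 349 and 346 against 87.9, 88.3 and 91.2 CPM. After recovery it read 10.2, 14.9 and 14.1 CPM in WT and 253, 230 and 255 CPM in KO cells, against 42.8, 41.3 and 39.8 and 529, 525 and 567 CPM untreated. Every treated library thus lay below every untreated library of its genotype, and the log2 changes were -1.27 (SE 0.08), -1.98 (SE 0.04), -1.64 (SE 0.12) and -1.14 (SE 0.06), with edgeR adjusted p-values of at most 1.1e-05. COL5A2, a main chain of type V collagen, read 153, 199 and 191 CPM in untreated WT U2OS cells and 86.4, 80.5 and 81.6 CPM in treated ones. Its log2 changes were of like size in all 4 comparisons, at -1.13 (SE 0.11) and -1.19 (SE 0.04) before and -1.32 (SE 0.10) and -1.05 (SE 0.07) after recovery. COL5A3 and COL5A2, chains of the same collagen type, therefore moved in opposite directions in every comparison, while COL5A1 was lower in KO cells before recovery (log2 -0.52) and in both genotypes after it (-0.71 and -0.43), with -0.11 (SE 0.09, adjusted p = 0.34) in WT cells before it, or -0.20 (SE 0.04, adjusted p = 2.3e-06) without replicate 1 of untreated WT U2OS. COL1A1 fell before recovery from 2500, 2310 and 2240 to 1590, 1540 and 1440 CPM in WT cells, a log2 change of -0.63 (SE 0.08, adjusted p = 0.00051), and by -0.65 (SE 0.05) in KO cells. After recovery its change was -0.43 (SE 0.08, adjusted p = 0.0019) in KO cells and -0.36 (SE 0.17, adjusted p = 0.14) in WT cells, where replicate 1 read 830 CPM beside 1190 and 1250 CPM.

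**Figure D3:**
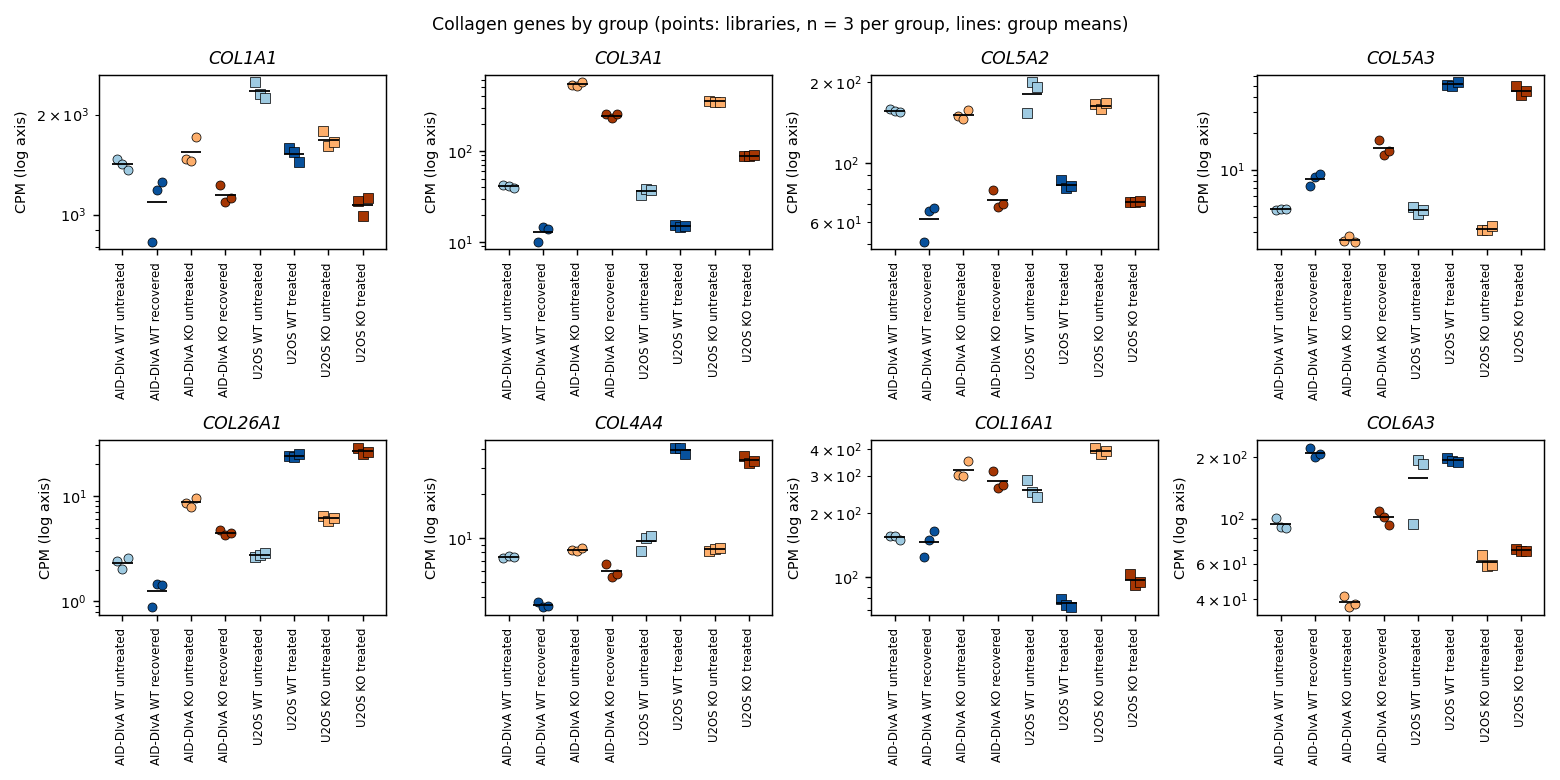
CPM of 8 collagen genes in the 24 libraries (log axis, 1 point per library, circles AID-DIvA, squares U2OS, light untreated, dark treated or recovered, blue WT, orange KO, lines are group means, n = 3). COL26A1 and COL4A4 rise before recovery and lie below untreated after it, COL3A1 is higher in all KO groups than in the WT groups, and COL6A3 is lower in untreated KO than in untreated WT cells.

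COL26A1 and COL4A4 were higher before recovery and lower after it, in both genotypes. COL26A1, a short collagen-like matrix protein first described in testis and ovary, read 2.63, 2.76 and 2.87 CPM untreated and 23.6, 23.3 and 24.6 CPM treated in WT U2OS cells, a log2 change of 3.11 (SE 0.08). In KO U2OS cells it went from 6.45, 5.81 and 6.2 to 28.4, 24.9 and 26.1 CPM, a change of 2.11 (SE 0.07). After recovery it was at 0.89, 1.46 and 1.44 CPM against 2.4, 2.01 and 2.56 CPM in WT, and at 4.72, 4.22 and 4.45 against 8.59, 7.86 and 9.46 CPM in KO cells. These groups did not overlap, and the log2 changes were -0.87 (SE 0.18, adjusted p = 0.0014) and -0.96 (SE 0.10, adjusted p = 7.2e-05). COL4A4, a chain of the type IV collagen of kidney, ear and eye basement membranes, read 8.14, 10 and 10.4 CPM untreated and 40.9, 40.8 and 37.3 CPM treated in WT U2OS cells, and 7.33, 7.51 and 7.46 against 3.68, 3.42 and 3.49 CPM after recovery. Its log2 change was 2.06 (SE 0.11) and 2.01 (SE 0.06) before recovery, and -1.05 (SE 0.08) and -0.50 (SE 0.09) after it. COL4A3, its head-to-head neighbour 452 bp away, also rose before recovery, by 1.23 (SE 0.22) and 1.38 (SE 0.26), from at most 0.52 CPM, with 39.1% of its strand-assigned counts on the opposite strand. After recovery COL4A3 was called lower in KO cells (log2 -0.99, SE 0.27, adjusted p = 0.016), but not when counted on its own strand (adjusted p = 0.077), by DESeq2 (0.054), or without recovered replicate 3 (0.05) or untreated replicate 2 (0.064). The third such pair, COL4A5 and COL4A6 on chromosome X with starts 347 bp apart, was not moved together: COL4A6 rose before recovery by 1.30 (SE 0.17) and 1.09 (SE 0.12), and COL4A5 fell after it by 0.69 (SE 0.10) and 0.68 (SE 0.08) on the log2 scale.

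Other genes passed the test in both genotypes at 1 stage and not in both at the other, with all libraries in the fit. Before recovery COL18A1, COL21A1, COL24A1, COL28A1, COL4A3, COL4A6, COL6A6 and COL8A1 rose, with log2 changes from 0.27 for COL18A1 in KO to 2.81 for COL21A1 in WT cells, and COL16A1 and COL1A1 fell. The call of COL8A1 in WT cells was lost without any 1 treated library, with adjusted p-values up to 0.058. COL16A1, a fibril-associated collagen on chromosome 1, read 285, 251 and 238 CPM untreated and 79.5, 74.3 and 72.7 CPM treated in WT U2OS cells, and 405, 378 and 390 against 104, 92.5 and 94.7 CPM in KO cells. This was a log2 change of -1.77 (SE 0.10) and -2.00 (SE 0.05), while after recovery the change was -0.05 (SE 0.09, adjusted p = 0.70) and -0.18 (SE 0.09, adjusted p = 0.13). After recovery COL6A3, COL6A2 and COL19A1 were higher in both genotypes, and COL12A1, COL14A1, COL4A5 and COL5A1 lower. Of these 7, COL6A2 (log2 0.21), COL12A1 (-0.39), COL4A5 (-0.37) and COL5A1 (-0.20) were also called the same way in WT cells before recovery once replicate 1 of untreated WT U2OS was left out, and KO cells called all 4 the same way before recovery. The call of COL6A2 in recovered KO cells was lost without untreated replicate 2 (adjusted p = 0.053), and that in WT cells with all 4 groups in 1 fit (0.1). COL6A3, the large chain of type VI collagen, read 101, 91.2 and 89.4 CPM untreated and 223, 200 and 209 CPM recovered in WT cells, and 41.5, 36.8 and 37.9 against 109, 102 and 92.9 CPM in KO cells, log2 changes of 1.19 (SE 0.05) and 1.39 (SE 0.08). COL19A1 rose by 3.43 (SE 0.48) and 2.48 (SE 0.45) from at most 0.104 CPM, and COL14A1 and COL21A1 did not exceed 0.871 and 0.521 CPM in any library. The call of COL14A1 was lost in 5 of 12 alternatives in WT cells (DESeq2, and without treated or untreated replicate 2 or 3) and in 3 of 10 in KO cells (DESeq2, and without treated replicate 2 or 3), with adjusted p-values up to 0.2 and 0.059. Several of these genes would not have met the count filter on the libraries of their lower group alone, so that a difference was built into their being tested: COL19A1 and COL14A1 after recovery and COL21A1 and COL28A1 before it in both genotypes, and in KO cells also COL4A3 after recovery and COL6A6 and COL1A2 before it.

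Leaving out replicate 1 of untreated WT U2OS kept the direction of these responses. The WT log2 change before recovery was then 3.54 for COL5A3, 2.86 for COL15A1, 1.63 for COL17A1, 3.08 for COL26A1 and 1.95 for COL4A4, and -1.33 for COL3A1, -1.24 for COL5A2, -1.70 for COL16A1 and -0.58 for COL1A1. COL12A1 read 236 CPM in that library beside 442 and 445 CPM in the other untreated ones, and without it the change was -0.39 (SE 0.03, adjusted p = 4.4e-14). Marker sums moved with treatment too. Before recovery the 3 epithelial markers summed to 225 to 313 CPM in untreated and 188 to 193 CPM in treated WT, and 185 to 192 and 143 to 163 CPM in KO cells, and the 2 endothelial markers to 5.34 to 7.19 and 9.27 to 10.9 CPM in WT and 3.12 to 3.3 and 5.2 to 6.41 CPM in KO cells. The 4 immune markers summed to 0.291 to 0.411 and 0.62 to 0.733 CPM in WT and to 0.55 to 0.703 and 0.705 to 0.924 CPM in KO cells, and the 6 osteoblast markers to 41 to 44 and 64.2 to 70.5 CPM in KO cells, with overlapping ranges in WT cells. After recovery the osteoblast sum was 68.5 to 71.8 CPM untreated and 72 to 76.8 CPM recovered in WT, and 36.1 to 40.2 and 50.9 to 58.1 CPM in KO cells. In KO cells the endothelial sum was then 1.63 to 2.04 and 3.04 to 3.2 CPM, the epithelial sum 179 to 211 and 212 to 248 CPM, and the immune sum 0.389 to 0.445 and 0.171 to 0.364 CPM, while in WT cells these 3 ranges overlapped. Their part in the collagen results was not tested.

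The response itself was then compared between stages. Of 40 collagen genes tested in WT cells, the log2 change after recovery was above that before it in 7 and below it in 11, and of 39 tested in KO cells it was above in 9 and below in 15. Among all genes tested, 20.5% were above and 21.7% below in WT cells, and 24.8% above and 27.7% below in KO cells. In both genotypes 6 collagen genes were above and 9 below, beside 17.1% and 19% of all genes tested in both. The counts below include COL21A1 and COL28A1, which were too low to be tested in either AID-DIvA comparison. They had at most 9 and 17 counts in any AID-DIvA library. Their stage differences rest on the rise in treated U2OS cells, where a difference was built into their being tested, as stated above. In KO cells the genes below also include COL14A1 and COL4A3, with 2 to 6 and 6 to 17 counts in the recovered libraries. In the comparison after recovery a difference was built into the testing of these 2 as well. Both stage calls were kept in 17 of 17 alternatives. Without replicate 1 of untreated WT U2OS, 8 were above and 11 below in WT cells, beside 26% and 26% of all genes, with COL27A1 gained as above, COL18A1 gained as below and COL15A1 (-0.53, SE 0.23, adjusted p = 0.061) lost. The widest differences were those of COL26A1, at -3.98 (SE 0.20) in WT and -3.07 (SE 0.12) in KO cells, and COL4A4, at -3.12 (SE 0.13) and -2.52 (SE 0.11). COL5A3 followed with -2.61 (SE 0.13) and -1.32 (SE 0.15), and COL16A1 differed in the other direction with 1.72 (SE 0.14) and 1.83 (SE 0.11). For COL5A2 no difference was detected, at -0.19 (SE 0.15, adjusted p = 0.33) and 0.13 (SE 0.08, adjusted p = 0.22).

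Untreated KO and WT cells differed in many collagen genes. In AID-DIvA cells 10 of 36 tested were higher and 12 lower in KO, and in U2OS cells 5 of 37 were higher and 15 lower. Over all genes tested, 18.6% were higher and 18.1% lower in AID-DIvA cells, and 6.56% higher and 8.63% lower in U2OS cells. Beyond a log2 difference of 1 there were 8 collagen genes in AID-DIvA and 11 in U2OS cells, where 4.58% and 4.26% of all genes passed. The lower genes in these counts include COL1A2 in both lines and COL14A1 in U2OS cells. Neither would have met the count filter on the KO libraries alone there, so that a difference was built into their being tested. The 2 comparisons share no library. Of the 22 and 20 collagen genes called, 5 were higher in KO in both and 11 lower in both, and none went opposite ways. Of all genes tested in both, 6.04% were higher in both, 6.62% lower in both and 0.135% opposite. Without replicate 1 of untreated WT U2OS, 9 were higher and 20 lower in U2OS cells, beside 20.5% and 20.6% of all genes. The calls gained were COL4A1, COL4A2, COL12A1 and COL13A1 as higher and COL4A4, COL5A2, COL7A1, COL11A2 and COL27A1 as lower. The 6 osteoblast markers summed to 68.5 to 71.8 CPM in WT and 36.1 to 40.2 CPM in KO AID-DIvA cells, and to 70.6 to 81.8 and 41 to 44 CPM in U2OS cells. The endothelial sum was 2.92 to 3.21 and 1.63 to 2.04 CPM in AID-DIvA, and 5.34 to 7.19 and 3.12 to 3.3 CPM in U2OS cells. The epithelial sum was 218 to 226 and 179 to 211 CPM, and 225 to 313 and 185 to 192 CPM. The immune sum was 0.291 to 0.411 CPM in WT and 0.55 to 0.703 CPM in KO U2OS cells, with overlapping ranges in AID-DIvA cells. The part of these markers in the collagen differences was not tested.

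**Figure D4:**
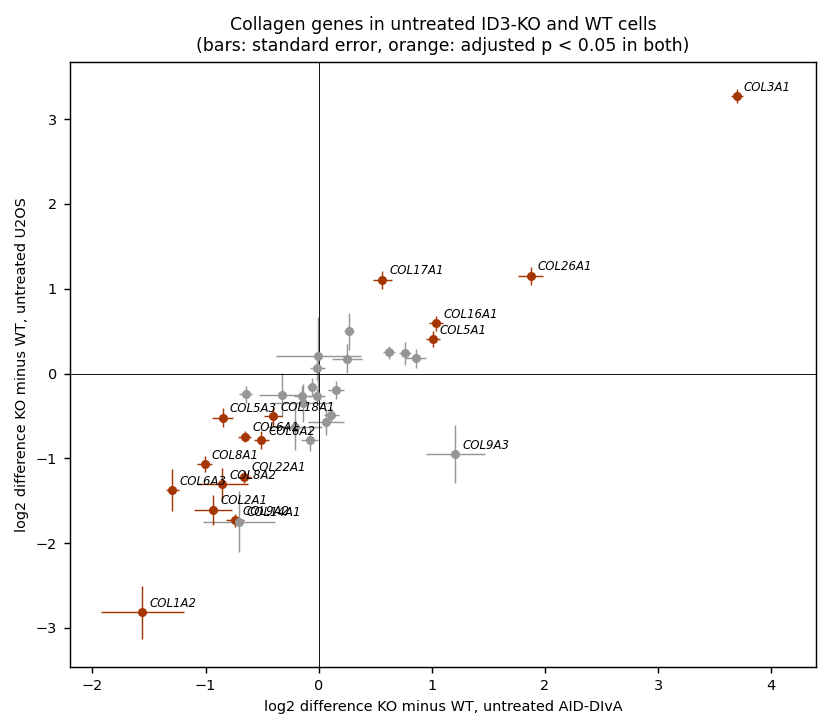
Log2 difference of untreated KO minus WT for the 36 collagen genes tested in both, in AID-DIvA cells (horizontal) and U2OS cells (vertical), with standard errors as bars. Orange points passed an adjusted p below 0.05 in both comparisons, and COL3A1 stands alone at 3.70 and 3.27.

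COL3A1 differed most between the genotypes. It read 42.8, 41.3 and 39.8 CPM in WT and 529, 525 and 567 CPM in KO AID-DIvA cells, and 33.4, 38 and 37.4 CPM in WT and 359, 349 and 346 CPM in KO U2OS cells. The log2 difference was 3.70 (SE 0.05, adjusted p = 3.9e-16) and 3.27 (SE 0.08, adjusted p = 2.4e-06) by edgeR, the latter 3.22 (SE 0.04) without replicate 1 of untreated WT U2OS. Its share of the summed collagen FPKM was 1.24% in WT and 13% in KO AID-DIvA cells, and 0.739% and 7.98% in U2OS cells. The recovered KO libraries, at 230 to 255 CPM, and the treated KO libraries, at 87.9 to 91.2 CPM, still lay above every WT library. COL26A1 was also higher in KO, by 1.87 (SE 0.11) and 1.15 (SE 0.10), as were COL16A1 by 1.04 (SE 0.06) and 0.59 (SE 0.09), COL17A1 by 0.56 (SE 0.09) and 1.11 (SE 0.10), and COL5A1 by 1.01 (SE 0.06) and 0.41 (SE 0.10).

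The genes lower in KO in both comparisons included all 3 common chains of type VI collagen. COL6A1 differed by -0.65 (SE 0.06) and -0.74 (SE 0.07), COL6A2 by -0.51 (SE 0.07) and -0.79 (SE 0.11), and COL6A3 by -1.29 (SE 0.06) and -1.37 (SE 0.25). For COL6A3 the U2OS value rested on unequal WT replicates, at 94.2, 194 and 185 CPM against 66.1, 58.3 and 59.4 CPM in KO cells, and without replicate 1 it was -1.64 (SE 0.04, adjusted p = 1.2e-26). The cartilage chains COL2A1 and COL9A2 were lower by -0.93 (SE 0.17) and -0.74 (SE 0.08) in AID-DIvA and by -1.61 (SE 0.18) and -1.73 (SE 0.08) in U2OS cells. Of the short network collagens COL8A1 was lower by -1.01 (SE 0.06) and -1.07 (SE 0.10), and COL8A2 by -0.85 (SE 0.22) and -1.31 (SE 0.19). COL1A2, already scarce, differed by -1.56 (SE 0.37) and -2.82 (SE 0.32), but it would not have met the count filter on the KO libraries alone in either comparison, so that a difference was built into its being tested. COL5A3, COL18A1 and COL22A1 completed the 11, with differences from -0.40 to -1.22. In U2OS cells the calls of COL5A1, COL5A3 and COL18A1 did not hold without any 1 of the 3 untreated KO libraries, with adjusted p-values up to 0.13, 0.098 and 0.12, nor did that of COL6A3, with up to 0.06. The calls of COL5A1 and COL5A3 were also lost without untreated WT replicate 3 (adjusted p = 0.062 and 0.055) and with the replicate number as a block (0.074 and 0.055), and that of COL18A1 without untreated WT replicate 2 (0.065). COL1A1 was lower in KO only in the U2OS comparison, by -0.49 (SE 0.08, adjusted p = 0.0064, or 0.054 without untreated KO replicate 2 or 3), where in AID-DIvA cells its difference was 0.11 (SE 0.06, adjusted p = 0.20), and the gap between these differences was not tested. COL4A1 and COL4A2 were higher in KO AID-DIvA cells by 0.76 (SE 0.05) and 0.62 (SE 0.05), with 0.24 (SE 0.14, adjusted p = 0.31) and 0.25 (SE 0.08, adjusted p = 0.077) in U2OS cells. Without replicate 1 of untreated WT U2OS the latter were 0.09 (SE 0.04, adjusted p = 0.05) and 0.20 (SE 0.04, adjusted p = 1.7e-05).

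Whether the response to mocetinostat differed between KO and WT cells was tested by the genotype by treatment interaction. After recovery 2 collagen genes of 38 tested had a higher and 1 a lower log2 change in KO than in WT cells, beside 0.762% and 0.451% of all genes. Before recovery it was 1 higher and 3 lower of 41, beside 1.1% and 1.06% of all genes. COL5A3 differed most, with an interaction of 1.65 (SE 0.15, adjusted p = 5.5e-05) after recovery, and 0.35 (SE 0.12, adjusted p = 0.19) before it. In recovered cells it was thus at 13.2 to 17.6 CPM in KO and 7.33 to 9.18 CPM in WT, although it was lower in KO before treatment. Before recovery COL26A1 rose less in KO cells (-1.0, SE 0.10, adjusted p = 0.00012) and COL3A1 fell further (-0.70, SE 0.08, adjusted p = 0.00032). COL9A2, a fibril-associated chain of cartilage, moved in opposite directions: from 72.5, 66.4 and 64.1 to 50.7, 46.6 and 44.7 CPM in WT, and from 20.9, 20.2 and 20.4 to 29.3, 26.2 and 27.4 CPM in KO U2OS cells, an interaction of 0.96 (SE 0.10, adjusted p = 0.00014). Without replicate 1 of untreated WT U2OS these 3 interactions were -0.97, -0.65 and 0.90, each with an adjusted p of at most 5.1e-08, and 4 genes were above and 7 below, beside 4.46% and 4.56% of all genes. COL2A1, COL11A1 and COL22A1 were gained as above and COL4A1, COL4A2, COL5A1 and COL16A1 as below. The interactions of COL4A4 (0.56) and COL8A1 (-0.53) after recovery and of COL17A1 (-0.53) before it passed at adjusted p-values of 0.025, 0.032 and 0.036, but each fell short when any of several single libraries was left out, with adjusted p-values up to 0.081, 0.11 and 0.12.

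The genes that modify, fold, trim and crosslink collagen were more often called lower than higher in each treatment comparison. Of 35 such genes, all tested, 7 rose and 16 fell in WT and 11 rose and 18 fell in KO U2OS cells, and after recovery 5 were higher and 14 lower in WT and 6 higher and 10 lower in KO cells. These were 20% and 45.7% of the list in WT and 31.4% and 51.4% in KO cells before recovery, where 26% and 22.9% and 35.8% and 34% of all genes rose and fell, and 14.3% and 40% in WT and 17.1% and 28.6% in KO cells after it, where 23.9% and 23% and 20.2% and 19.9% of all genes did. The median log2 change of the list was -0.12 in each genotype before recovery, and -0.07 in WT and -0.05 in KO cells after it. SERPINH1, the chaperone HSP47 that binds folded procollagen, read 506, 418 and 402 CPM in untreated and 113, 105 and 107 CPM in treated WT U2OS cells, and 498, 498 and 506 against 124, 112 and 122 CPM in KO cells. The groups were far apart, with log2 changes of -2.03 (SE 0.11) and -2.07 (SE 0.05). LOXL4, a lysyl oxidase, fell by 1.45 (SE 0.09) and 1.55 (SE 0.05) before recovery, and LOXL1 and LOXL4 were lower by 1.35 (SE 0.08) and 0.96 (SE 0.13) in WT cells after it. In recovered KO cells the widest falls were those of TLL1 (-1.40, SE 0.14) and LOX (-1.38, SE 0.09). ADAMTS14, a procollagen N-proteinase, and TLL2, a tolloid-like protease, rose in all 4 comparisons, by 1.76 and 1.97 in WT and 2.09 and 2.34 in KO cells before recovery, and by 1.13 and 0.30 and by 1.46 and 0.66 after it. Between untreated genotypes 11 of the 35 were higher and 11 lower in KO AID-DIvA cells, and 3 higher and 9 lower in U2OS cells, beside 18.6% and 18.1% and 6.56% and 8.63% of all genes. The response differed between stages for 9 above and 11 below in WT, and for 14 above and 12 below in KO cells, beside 20.5% and 21.7% and 24.8% and 27.7% of all genes. No gene of this list passed the interaction test by edgeR at either stage, where 8 after and 5 before recovery had an unadjusted p below 0.05, and DESeq2 called 2 at each stage.

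Several collagen genes were measured at the edge of detection. COL10A1, COL23A1 and COL25A1 reached at most 0.153, 0.0837 and 0.202 CPM, and 70.5% of the strand-assigned counts of COL10A1 lay on the opposite strand. COL6A5 and COL9A1 were likewise too low to be tested in the 4 treatment comparisons with all libraries in the fit. COL6A5 had 13, 12 and 10 counts in treated WT and 11, 8 and 7 in treated KO U2OS cells, and at most 3 counts in every other library. COL9A1 had 12, 3 and 7 counts in treated WT and 7, 9 and 1 in treated KO U2OS cells, and 1 count in the other 18 libraries together. The remaining genes with smaller or unpaired changes were COL1A2, COL2A1, COL4A1, COL4A2, COL6A1, COL7A1, COL8A2, COL9A2, COL9A3, COL11A1, COL11A2 and COL27A1, whose called log2 changes lay between -0.98 for COL2A1 in WT cells after recovery and 1.01 for COL1A2 in KO cells before it. The latter, from 0.135, 0.0837 and 0.195 to 0.202, 0.403 and 0.24 CPM, passed with an adjusted p of 0.038 and fell short in 6 of 12 alternatives.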

How the data were processed

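Per the labels and the methods, stranded total RNA libraries were sequenced in pairs. The authors ran the Roddy workflow, with STAR for alignment to hg19/GRCh37 and featureCounts for counting by gene. They deposited unnormalised counts of each library, for either strand and by strand, and the counts of either strand were used. Such counts do not separate a gene from reads of the opposite strand, and reverse-strand counts were an alternative. For some genes the reverse-strand total was the higher, as for COL18A1, at 119.8% of the either-strand total. Columns of FPKM and TPM were not used here.

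Tests used edgeR 4.0.16 in R 4.3.3 (TMM, filterByExpr, robust quasi-likelihood fit, Benjamini-Hochberg over all genes tested, called at an adjusted p below 0.05). Treatment and genotype comparisons used their own 6 libraries, and interactions and stage differences 12. The standard error is the log2 change divided by the square root of F. CPM used TMM over all libraries, and FPKM divided it by exonic length. The script was tested on simulated data. DESeq2 1.42.0, other scalings, filters and fits, a replicate block and leaving out each library were tried. A log2 change is given for collagen genes that passed, or with its error and adjusted p, and of the biosynthesis genes the 2 widest rises and falls per treatment comparison at a mean of at least 1 CPM are named. The genes and lists were chosen with earlier results of these data known. Biological replicates are as labelled, and at these depths the spread between 3 replicates sets the precision. Of the cell type markers listed, 1 further gene is not reported here.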

Additional observations from a re-analysis of the deposited data

Results flagged for a closer look

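These results differ between genotypes or between stages by a test of the difference itself (edgeR, adjusted p below 0.05). The log2 change in KO minus that in WT cells after recovery was 0.56 for COL4A4, -0.53 for COL8A1 and 1.65 for COL5A3. Before recovery it was 0.96 for COL9A2, -0.70 for COL3A1, -1.0 for COL26A1 and -0.53 for COL17A1.

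In WT cells the log2 change after recovery minus that before it was above 0 for COL16A1 1.72, COL8A2 1.28, COL6A3 0.89, COL17A1 0.55, COL4A2 0.53, COL7A1 0.49 and COL4A1 0.45. It was below 0 for COL26A1 -3.98, COL4A4 -3.12, COL21A1 -3.02, COL5A3 -2.61, COL28A1 -2.54, COL4A3 -1.85, COL24A1 -1.79, COL4A6 -1.12, COL5A1 -0.61, COL15A1 -0.60 and COL4A5 -0.48. The call was lost in 11 of 18 alternatives for COL15A1, 8 of 18 for COL4A5, 5 of 18 for COL4A1 and 2 of 18 for COL7A1, with adjusted p-values up to 0.16, 0.13, 0.065 and 0.063. For COL15A1 the losses came without a filter, with the replicate block, or without any 1 of recovered replicates 2 and 3, untreated AID-DIvA replicates 2 and 3, untreated U2OS replicates 1 and 3 and treated U2OS replicates 1, 2 and 3. For COL4A5 they came with the block, or without any 1 of recovered replicate 1, the 3 untreated AID-DIvA replicates and the 3 treated U2OS replicates. For COL4A1 they came without recovered replicate 2, untreated AID-DIvA replicate 3, untreated U2OS replicate 2 or treated U2OS replicate 2 or 3, and for COL7A1 without recovered or untreated AID-DIvA replicate 3.

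In KO cells the log2 change after recovery minus that before it was above 0 for COL16A1 1.83, COL6A3 1.19, COL3A1 0.83, COL17A1 0.67, COL7A1 0.57, COL4A1 0.56, COL4A2 0.53, COL27A1 0.51 and COL6A1 0.43. It was below 0 for COL26A1 -3.07, COL4A4 -2.52, COL4A3 -2.39, COL14A1 -2.12, COL21A1 -1.92, COL28A1 -1.88, COL9A3 -1.55, COL24A1 -1.40, COL5A3 -1.32, COL15A1 -1.27, COL4A6 -1.18, COL8A1 -0.63, COL11A1 -0.51, COL13A1 -0.47 and COL20A1 -0.47. The call was lost in 12 of 18 alternatives for COL20A1, 11 of 17 for COL21A1 and 6 of 18 for COL13A1, with adjusted p-values up to 0.15, 0.16 and 0.078. COL20A1 and COL21A1 were lost with DESeq2, with its size factors and without a filter, and COL20A1 also with the replicate block. COL20A1 was lost without any 1 of recovered replicates 2 and 3, untreated AID-DIvA replicates 1 and 3, untreated U2OS replicates 1 and 3 and treated U2OS replicates 2 and 3. COL21A1 was lost without any 1 of recovered replicates 1 and 2, untreated AID-DIvA replicates 2 and 3, untreated U2OS replicates 1 and 3 and treated U2OS replicates 1 and 3. COL13A1 was lost without any 1 of recovered replicates 2 and 3, untreated AID-DIvA replicate 3, untreated U2OS replicates 1 and 2 and treated U2OS replicate 1.

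Stage and cell line cannot be told apart in the latter differences. Those of COL21A1 and COL28A1 rest on the treated U2OS libraries, since both genes were too low to be tested in either AID-DIvA comparison. In KO cells COL14A1 and COL4A3 had only 2 to 6 and 6 to 17 counts in the recovered libraries. The causes of all flagged differences were not tested.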

How the results depend on the processing

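No called log2 change of a collagen gene changed direction under any alternative run. Of 192 calls, 7 lost significance with DESeq2, 2 with its size factors in edgeR, 6 without a filter on low counts, and 1 of 191 on the reverse strand (COL4A3 in recovered KO cells). None of 172 was lost with at least 10 counts in every library, 5 of 143 were lost with all 4 groups in 1 fit, and 122 of 1445 when a library was left out. Requiring a log2 change beyond 1 left 6 higher and 3 lower collagen genes after recovery in WT and likewise in KO cells, 13 higher and 3 lower in WT and 14 higher and 3 lower in KO cells before recovery, 5 higher and 3 lower in KO against WT AID-DIvA and 3 higher and 8 lower in U2OS cells. It left 1 and 0 in the interaction after recovery, 0 and 1 in that before it, and 2 higher and 8 lower in the stage difference of WT and 2 higher and 11 lower in that of KO cells. Several of these counts include genes for which a difference was built into their being tested, as named above.

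The interaction counts were the least settled. After recovery (2 higher, 1 lower) they were 4 and 2 by DESeq2 and 5 and 4 without a filter, and before it (1 higher, 3 lower) 2 and 5 by DESeq2, 3 and 5 without a filter, and 2 higher with at least 10 counts. The deviations of same-numbered replicates from their group means were correlated in each treatment and untreated genotype comparison. In none did every correlation exceed 0.1, so that the numbers were not taken to pair samples. In KO U2OS cells, treated against untreated, all were positive but small (0.0827, 0.119 and 0.0421). With the replicate block 10 of 192 calls were lost and the interaction counts after recovery were 1 and 0.

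Leaving out single libraries gave these lowest and highest counts of higher and of lower genes. After recovery they were 12 to 15 and 8 to 11 in WT and 10 to 15 and 8 to 12 in KO cells. Before it they were 14 to 20 and 7 to 17 in WT and 21 to 24 and 12 to 13 in KO cells. Between untreated genotypes they were 10 to 11 and 12 to 14 in AID-DIvA and 4 to 9 and 9 to 20 in U2OS cells. In the interactions they were 1 to 3 and 0 to 3 after recovery and 1 to 4 and 2 to 7 before it, and in the stage differences 5 to 10 and 9 to 13 in WT and 9 to 10 and 12 to 14 in KO cells. The 17, the 9 higher, the 4 and the 7 came without replicate 1 of untreated WT U2OS, and the 9 lower without replicate 1 or 2 of untreated KO U2OS. The lower call of COL6A3 in KO U2OS cells had adjusted p-values of up to 0.06 when any 1 of the 3 untreated KO U2OS replicates was left out. The cause of these shifts was not tested. Genes below 1 CPM rest on few counts.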
